A study of Mus musculus with 6 samples.

Results

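Adenosine handling was examined in whole brain RNA 48 hours after systemic LPS, over 10 genes that form, clear, transport or sense adenosine: Ada, Adk, Nt5e, Entpd1, Pnp, Adora1, Adora2a, Adora2b, Adora3 and Slc29a1. A transcript cluster (probes grouped by the array maker for a single locus) was taken when the platform annotation named any of these genes, alone or with another gene. Of 35556 clusters 8 were taken, which measure 7 of the 10 genes. The clusters of Ada, Adk, Nt5e, Entpd1 and Slc29a1 name a single gene. Pnp has a cluster of its own and another shared with its near copy Pnp2, and Adora3 is measured in a cluster shared with Tmigd3, a gene that overlaps it. No cluster carries the name of Adora1, Adora2a or Adora2b in the annotation used here, and these receptors were not analysed here. The set was chosen by the LPS against PBS difference of Ada, whose cluster was among the few that passed as lower, so values of that contrast are given as a description.

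The LPS-treated mice were 3 male C57BL6 mice injected i.p. with 4 mg/kg LPS from Escherichia coli serotype 055:B5, and the vehicle-treated controls were 3 male C57BL6 mice injected with PBS. Mice were 7 to 8 weeks old when purchased, and per the study's methods they were perfused with PBS to clear blood from the brain. Each brain was hybridized to its own GeneChip Mouse Gene 1.0 ST array. Values are log2 expression after robust multichip average (RMA) normalization, and differences are LPS minus PBS on that scale. In whole brain RNA, fewer cells of a type and less RNA per cell cannot be told apart.

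Adenosine is a breakdown product of ATP and a modulator of neurons, glia, vessels and immune cells. Outside the cell CD39 (Entpd1) turns ATP and ADP into AMP, and CD73 (Nt5e) turns AMP into adenosine, which acts on G protein-coupled adenosine receptors. The transporter ENT1 (Slc29a1) carries adenosine across the membrane. Inside the cell adenosine kinase (Adk) returns it to AMP, while adenosine deaminase (Ada) converts it to inosine, which purine nucleoside phosphorylase (Pnp) then splits.

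The promoter windows of Ada and Nt5e, the pair of genes with the largest decreases of the set, are shown first. Each runs from 250 bases before to 50 bases after the annotated start (RefSeq, GRCm38.p6). Ada lies on the minus strand at chr2:163750190-163750489 and Nt5e on the plus strand at chr9:88327359-88327658. Capitals mark GC boxes (GGGCGG on either strand) and, in Ada alone, the run TTCCGGGAA, a match to the GAS element (TTCNNNGAA, the same on both strands) that STAT factors are known to bind.
Ada: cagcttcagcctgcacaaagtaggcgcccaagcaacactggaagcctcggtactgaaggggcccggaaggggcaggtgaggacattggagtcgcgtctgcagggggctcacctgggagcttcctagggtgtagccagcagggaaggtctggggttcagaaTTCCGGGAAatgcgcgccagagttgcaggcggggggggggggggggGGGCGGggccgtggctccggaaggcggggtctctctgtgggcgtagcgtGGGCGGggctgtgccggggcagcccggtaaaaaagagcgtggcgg
Nt5e: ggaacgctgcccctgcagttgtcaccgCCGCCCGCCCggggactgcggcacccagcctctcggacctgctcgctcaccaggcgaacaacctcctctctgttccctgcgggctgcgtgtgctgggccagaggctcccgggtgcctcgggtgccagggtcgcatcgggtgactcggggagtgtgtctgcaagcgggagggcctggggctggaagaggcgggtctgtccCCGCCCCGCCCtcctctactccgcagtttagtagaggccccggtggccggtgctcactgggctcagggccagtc
The Ada window held 2 GC boxes and 1 match to the GAS element, and the Nt5e window held 4 GC boxes, which overlap in pairs, and no match to the GAS element. The GC content of the windows was 68% for Ada and 71% for Nt5e. Over all 32851 promoter windows of this length, 35.7% held a GC box, 8.3% the GAS element and 3.44% the interferon-stimulated response element (on either strand), which neither window held. A match describes these letters and not a bound site.

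Ada, the deaminase, had less signal in all LPS-treated brains than in any control brain. Its log2 expression was 5.85, 5.70 and 5.80 in LPS-treated mice, against 6.29, 6.50 and 6.39 in vehicle-treated controls. The groups did not overlap, and 0.44 separated the highest LPS-treated mouse from the lowest control. The means were 5.78 ± 0.08 in LPS-treated mice and 6.39 ± 0.10 in controls (SD, n = 3 each), a log2 fold change of -0.61 (95% interval -0.82 to -0.40), or a ratio of LPS over PBS of 0.656. In limma over all clusters this gave the adjusted p of 0.0393 that brought Ada into the set, and it is not independent evidence. Of the 8 clusters Ada was the 1 called lower, while 0.0619% of all clusters were called lower, and 0 were called higher, while 0.652% of all clusters were (0.714% in either direction). By the methods' t-test 0 of the 8 were called, as were 0.0141% of all clusters. At an unadjusted p under 0.05 from limma 2 were lower and 1 was higher, where 6.58% and 7.69% of all clusters were.

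The signal of Ada was close to background. Receptors for odours and pheromones, mostly silent in brain, had array medians from 5.67 to 5.81 over their 1210 clusters. Ada stood above 55.5% of these clusters in LPS-treated mice and above 92.1% of them in controls, so its LPS values were within the spread of these mostly silent genes. Leaving out LPS replicate 3 kept Ada past the threshold (adjusted p = 0.0169 from limma), and leaving out any of the other 5 arrays put it above (0.109 to 0.183), with log2 fold changes from -0.66 to -0.56.

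**Figure D1:**
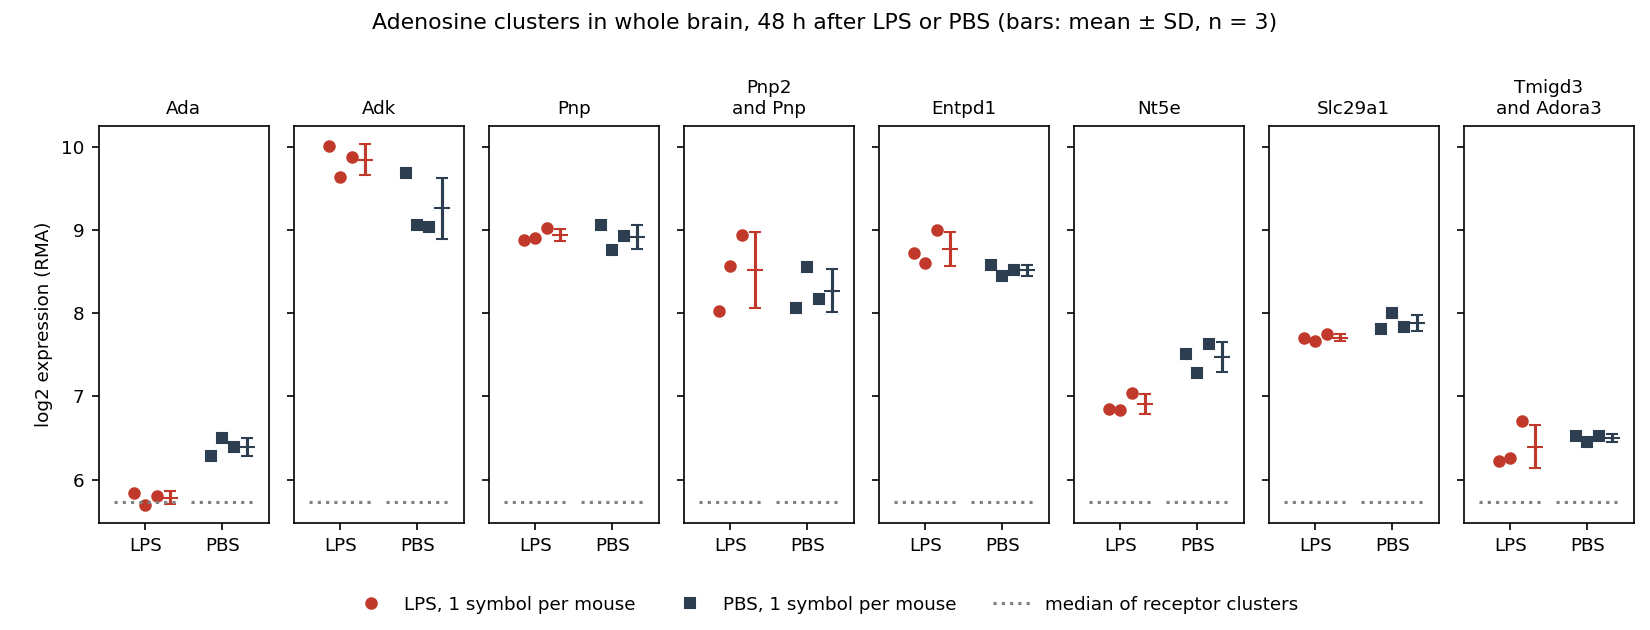
Log2 expression of the 8 adenosine clusters (vertical axis) in each LPS-treated mouse (red circles) and each vehicle-treated control (dark squares), with the mean and SD of 3 mice and, dotted, the mean over arrays of the median of odour and pheromone receptor clusters. The LPS values of Ada, from 5.70 to 5.85, lie at the dotted line, and LPS replicate 3 is the highest LPS symbol for Nt5e, Entpd1 and the shared Adora3 cluster.

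Adk, the kinase that returns adenosine to AMP, had a higher mean after LPS with overlapping groups. Its log2 expression was 10.01, 9.64 and 9.88 in LPS-treated mice, against 9.68, 9.06 and 9.04 in controls. PBS replicate 1 lay above LPS replicate 2, while the other controls lay below all LPS-treated mice. The difference of 0.58 (95% interval 0.12 to 1.04, adjusted p = 0.276 from limma) did not pass, and it was 0.79 without PBS replicate 1 (adjusted p = 0.145 from limma).

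Pnp, the phosphorylase that acts on inosine after Ada, was close in the groups in its own cluster. Its log2 expression was 8.88, 8.91 and 9.02 in LPS-treated mice, against 9.06, 8.76 and 8.92 in controls, with a log2 fold change of 0.02 (95% interval -0.21 to 0.25, adjusted p = 0.945 from limma). This interval leaves room for changes of at most 1.19-fold up or to 0.862 of the control level. The cluster shared with Pnp2 had 8.03, 8.57 and 8.94 in LPS-treated mice, against 8.07, 8.56 and 8.17 in controls. LPS replicate 3 stood above the other 5 arrays there, the SD was 0.46 among LPS-treated mice and 0.26 among controls, and the log2 fold change of 0.25 had an interval of -0.33 to 0.82 (adjusted p = 0.669 from limma). Without LPS replicate 3 the difference of this cluster was 0.03, and without LPS replicate 1 it was 0.49. The signals of Pnp and Pnp2 in it cannot be told apart.

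The enzymes that form adenosine outside the cell differed in sign. Entpd1, which encodes CD39 of microglia and endothelium, had 8.73, 8.60 and 8.997 in LPS-treated mice, against 8.58, 8.45 and 8.51 in controls. All LPS-treated mice were above all controls, by a margin of 0.02, as in 9.73% of all clusters, and LPS replicate 3 was the highest. Its difference of 0.26 (95% interval -0.01 to 0.53, adjusted p = 0.369 from limma) did not pass, and without LPS replicate 3 it was 0.15.

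Nt5e, which encodes CD73, the last step to extracellular adenosine, had 6.85, 6.84 and 7.05 in LPS-treated mice, against 7.51, 7.28 and 7.64 in controls. The groups did not overlap, with a margin of 0.23. The log2 fold change was -0.56 (95% interval -0.84 to -0.29), a ratio of LPS over PBS of 0.677, and it did not pass (adjusted p = 0.124 from limma). A log2 fold change at or below this value was seen in 0.65% of all clusters. Without LPS replicate 3 the log2 fold change was -0.63 and passed (adjusted p = 0.0256 from limma), and with any other array left out it lay between -0.66 and -0.48 and did not pass. Unlike Ada, Nt5e stood above 98.8% of receptor clusters in LPS-treated mice and above 99.7% of them in controls.

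Slc29a1, which encodes the transporter ENT1, had 7.70, 7.66 and 7.75 in LPS-treated mice, against 7.82, 8.00 and 7.84 in controls. All LPS-treated mice were below all controls by a margin of 0.07, as were Ada and Nt5e, so that 3 of the 8 clusters showed this order, where 10.3% of all clusters did. The mean difference of -0.18 (95% interval -0.37 to 0.02, adjusted p = 0.379 from limma) did not pass. The cluster of Adora3, which encodes the A3 receptor, and Tmigd3 had 6.23, 6.27 and 6.70 in LPS-treated mice, against 6.53, 6.45 and 6.53 in controls. LPS replicates 1 and 2 were below all controls and LPS replicate 3 was above them. The log2 fold change was -0.10 (95% interval -0.42 to 0.22, adjusted p = 0.755 from limma), and with LPS replicate 3 as the only LPS array it was 0.20. Which of Adora3 and Tmigd3 gave this signal cannot be told apart.

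**Figure D2:**
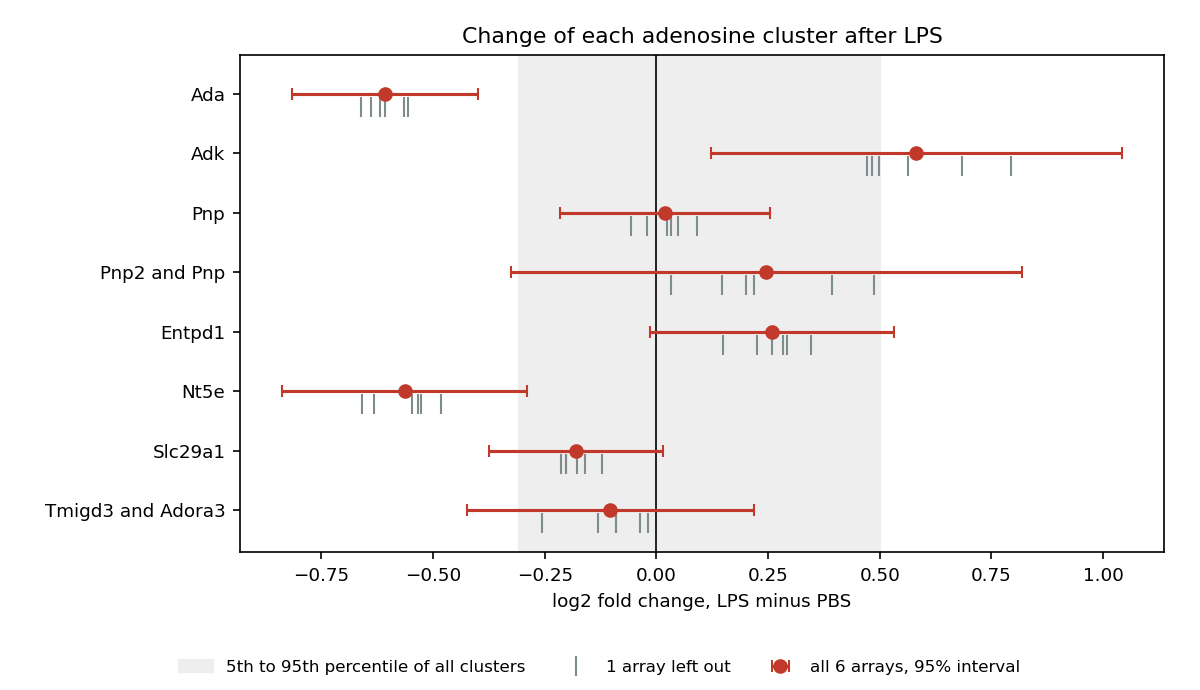
Log2 fold change, LPS minus PBS, of the 8 adenosine clusters with its 95% interval (red) and its values with 1 array left out at a time (grey ticks), on the 5th to 95th percentile of all clusters (-0.31 to 0.50, shaded). Ada and Nt5e lie left of the shaded range and Adk right of it, and only the intervals of these 3 clusters leave out 0.

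Over the 8 clusters the median log2 fold change was -0.04, and over all clusters it was 0.00 (-0.000925). Of the 8 clusters 4 had a positive and 4 a negative difference. The median SD of the 8 was 0.15 among LPS-treated mice and 0.13 among controls, against 0.14 and 0.10 over all clusters. The first principal component (54.5% of the variance) set LPS replicates 1 and 2 off from the other arrays, and the mean of these mice was below LPS replicate 3 for each of the 8 clusters. This difference was smallest for Ada (-0.03), Adk (-0.06) and Slc29a1 (-0.07), and was -0.20 for Nt5e, -0.33 for Entpd1, -0.45 for the Adora3 cluster and -0.64 for the cluster shared by Pnp and Pnp2.

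Other genes of purine metabolism and signalling were counted in 6 lists of 85 genes, of which 78 were measured in a cluster naming the gene alone. Of these P2ry6 was higher after LPS, 0 were lower and 77 did not pass limma, with a median log2 fold change of -0.05. Over all clusters 0.652% were called higher and 0.0619% lower. By the methods' t-test 0 of the 78 passed, as did 0.0141% of all clusters. At an unadjusted p under 0.05 from limma 4 were higher and 11 were lower, where 7.69% and 6.58% of all clusters were. P2ry6, a receptor for UDP known from phagocytic microglia, was the 1 higher gene of 14 P2 nucleotide receptors. It had 7.08, 7.06 and 6.98 in LPS-treated mice, against 6.37, 6.52 and 6.42 in controls, with no overlap. The log2 fold change was 0.60 (95% interval 0.42 to 0.79, adjusted p = 0.0256 from limma). The difference no longer passed with any array but LPS replicate 3 removed (adjusted p from 0.0966 to 0.148 from limma), with each array centred on its median (0.0803) or after quantile normalization (0.0506). The other P2 receptors included P2rx4, an ATP-gated channel, at 0.34 and P2rx5 at -0.42, and neither passed limma (adjusted p = 0.269 and 0.270).

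Of 12 other ectonucleotidases and phosphatases none passed, and log2 fold changes lay between -0.20 and 0.32. The 3 with the smallest p were Bst1, Enpp3 and Acpp, and Bst1 and Acpp lay below the receptor median in controls. None of 9 genes of intracellular adenosine formation passed (-0.19 to 0.12). Among them were the cytosolic nucleotidase Nt5c3b (-0.18), the mitochondrial nucleotidase Nt5m (-0.19) and Ahcyl2 (0.12). Ahcyl2 is a relative of Ahcy, the enzyme that releases adenosine from S-adenosylhomocysteine. Ahcy itself is not among the 9, which are genes named alone. In a cluster that Ahcy shares with Gm4737, LPS minus PBS was -0.40, outside the range of the 9. That cluster missed the threshold (limma adjusted p = 0.22), and the signals of Ahcy and Gm4737 in it cannot be told apart. None of 11 genes of nucleoside transport and nucleotide release passed (-0.21 to 0.17), and the concentrative transporter Slc28a2 had a log2 fold change of -0.18, the channel gene Panx2 -0.21 and the transporter Slc29a4 0.14.

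Of 19 genes of purine deamination, salvage and breakdown, the list nearest to Ada and Pnp, none passed. In this list 15 differences were negative and 4 positive, with a median of -0.10 against -0.02 over all clusters that name 1 gene. Median differences from the control mean were -0.14, -0.15 and 0.003 in LPS replicates 1, 2 and 3, against -0.06 to 0.06 in controls. LPS replicate 3 thus lay within the range of the controls. The lowest was Adssl1, which encodes an adenylosuccinate synthetase of AMP synthesis, with 8.40, 7.99 and 8.34 in LPS-treated mice, against 8.58, 8.73 and 8.75 in controls (log2 fold change -0.45, adjusted p = 0.222 from limma). Its groups did not overlap, but the difference did not pass. Ak3, a mitochondrial adenylate kinase family gene, differed by -0.25 and the AMP deaminase gene Ampd1, which lay below the receptor median in controls, by -0.39, and neither passed limma (adjusted p = 0.284 and 0.323). Of 13 genes of G proteins and adenylyl cyclases, through which adenosine receptors signal, none passed, and log2 fold changes lay between -0.22 for Adcy3 and 0.14 for Gnai2.

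**Figure D3:**
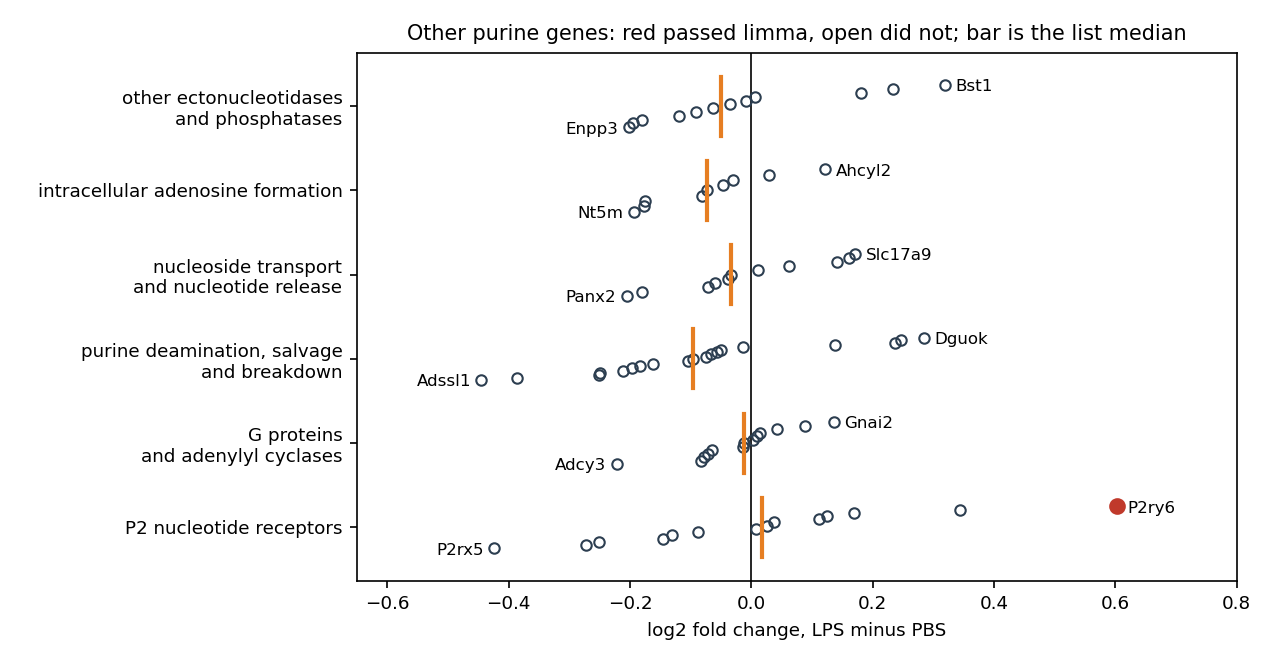
Log2 fold change, LPS minus PBS, of the 78 other purine genes in 6 lists, with 1 circle per gene, the genes with the lowest and highest value named, and a bar at the list median. P2ry6 at 0.60 is the 1 filled circle, and list medians lie between -0.10 and 0.02.

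Markers of cell types were measured beside these genes. The labelled tissue showed its markers: all 5 neuronal markers, such as Snap25 and Syt1, stood above the receptor median. All 5 endothelial markers were at p under 0.05 and Cldn5, Pecam1 and Cdh5 passed limma, and the log2 of the summed endothelial signal was 11.86 to 12.04 in LPS-treated mice and 10.84 to 11.22 in controls. Endothelium carries Entpd1 and Slc29a1, whose differences had opposite signs (0.26 and -0.18). Of 5 microglial markers 0 passed, and their median difference from the control mean was 0.10, 0.19 and 0.38 in LPS replicates 1, 2 and 3, against -0.08 to 0.08 in controls. The log2 of their summed signal was 10.96 to 11.25 in LPS-treated mice and 10.74 to 10.92 in controls. Of these markers Cx3cr1 (0.47) and Csf1r (0.30) had all LPS-treated mice above all controls, while P2ry12 (0.01), Tmem119 (0.11) and Aif1 (0.09) overlapped. For Entpd1 and P2ry6, genes of microglia, all LPS-treated mice lay above all controls, as in 9.73% of all clusters. P2ry13 (0.03), another P2 receptor gene of microglia, overlapped. The part of endothelium and microglia in the values of Entpd1, Slc29a1 and P2ry6 was not tested.

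Astrocytes are known to hold much of the adenosine kinase of adult brain. Of 5 astrocyte markers 0 passed and 4 had a positive difference. For Gfap (log2 fold change 0.56, adjusted p = 0.130 from limma) and Aqp4 (0.19) all LPS-treated mice lay above all controls, as in 9.73% of all clusters. The groups overlapped for Slc1a3 (0.02), Slc1a2 (0.04) and Aldh1l1 (-0.18). Median differences of the list also overlapped, at -0.003, 0.01 and 0.13 in LPS replicates 1, 2 and 3, against -0.10 to 0.06 in controls. The log2 of the summed astrocyte signal was 13.46 to 13.62 in LPS-treated mice and 13.40 to 13.457 in controls, while Adk had a higher mean after LPS. The part of astrocytes in the values of Adk was not tested.

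Lymphocytes are rich in adenosine deaminase, and the T and NK cell markers Cd2, Cd3d and Cd3g lay below the receptor median in controls. All LPS-treated mice lay above all controls for Gzma (log2 fold change 0.57, adjusted p = 0.0768 from limma), as in 9.73% of all clusters. This held for Cd3e as well (0.26, adjusted p = 0.296 from limma). Gzma stood above 89.9% of receptor clusters in LPS-treated mice and above 50.3% of them in controls. Thy1 (-0.27) had all LPS-treated mice below all controls, as in 10.3% of all clusters. Over the 9 T and NK cell markers none passed, 3 differences were positive and 6 negative, and the median differences were -0.05, 0.09 and -0.16 in the LPS-treated mice, against -0.02 to 0.04 in controls. The log2 of their summed signal, in which Thy1, also a neuronal gene, is the brightest, was 11.88 to 12.02 in LPS-treated mice and 12.16 to 12.20 in controls. None of 7 neutrophil and monocyte markers and none of 5 red blood cell and platelet markers passed. Of 7 markers of meninges and fibroblasts, cells known to carry CD73, Dcn passed (log2 fold change 0.64, adjusted p = 0.0466 from limma) and the others did not. For Pdgfra (-0.21) and Slc22a6 (-0.22) all LPS-treated mice lay below all controls, as for Nt5e and 10.3% of all clusters. For Dcn and Col1a2 (0.10) they lay above all controls, as in 9.73% of all clusters. The groups overlapped for Lum (0.06), Col1a1 (0.06) and Igf2 (-0.10). The median differences of this list were -0.15, -0.13 and 0.08 in LPS replicates 1, 2 and 3, against 0.00 to 0.01 in controls. The log2 of their summed signal, in which Dcn is the brightest, was 12.01 to 12.25 in LPS-treated mice and 11.83 to 11.89 in controls. All 4 oligodendrocyte markers had negative differences, and none passed. Mog (-0.25) had all LPS-treated mice below all controls, as in 10.3% of all clusters. The groups overlapped for Mobp (-0.30), Mag (-0.10) and Mbp (-0.03). The median differences of this list were -0.14, -0.22 and -0.09 in LPS replicates 1, 2 and 3, against -0.08 to 0.11 in controls. The log2 of their summed signal was 13.10 to 13.19 in LPS-treated mice and 13.25 to 13.40 in controls, without overlap. Choroid plexus markers had median differences of -0.25, -0.29 and 0.24 in LPS replicates 1, 2 and 3, against -0.08 to 0.20 in controls. Of 8 striatal markers none passed, and 4 differences were positive and 4 negative. Ppp1r1b (-0.67) and Gpr6 (-0.23) had all LPS-treated mice below all controls, as in 10.3% of all clusters. Pde10a (0.32) had them above all controls, as in 9.73% of all clusters, and the other striatal markers overlapped. The part of these cell types in the values of Ada and Nt5e was not tested.

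**Figure D4:**
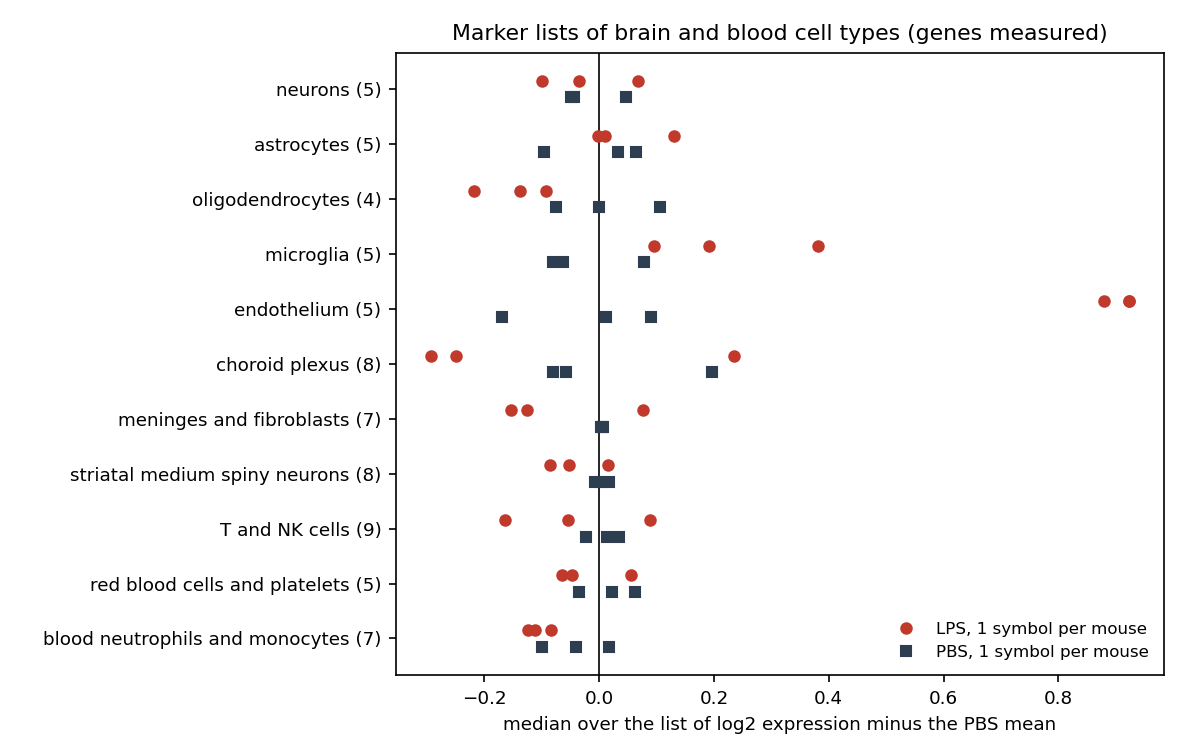
Median over each marker list of log2 expression minus the mean of the controls (horizontal axis), with 1 symbol per LPS-treated mouse (red circles) or control (dark squares) and the number of genes measured in parentheses. The endothelial list at 0.88 to 0.92 in LPS-treated mice is apart from the controls, and the choroid plexus list of LPS replicates 1 and 2 lies left of LPS replicate 3.

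The genes named alone whose values over the 6 arrays were most like those of Ada were Chchd6, Sdhc, C1qtnf3, Dusp10 and Prcc, with Pearson correlations from 0.987 to 0.994. These points share the difference between the groups, and the likeness is a description. Dusp10, which encodes a phosphatase of MAP kinases, had 7.77, 7.44 and 7.69 in LPS-treated mice, against 8.20, 8.43 and 8.29 in controls, so that LPS replicate 2 and PBS replicate 2 were its extremes, as they were those of Ada. Sdhc, which encodes a subunit of succinate dehydrogenase, had 10.54, 10.40 and 10.43 in LPS-treated mice, against 10.80, 10.93 and 10.84 in controls. None of the 5 passed limma, with log2 fold changes from -0.67 to -0.20 and adjusted p from 0.0690 to 0.300.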

How the data were processed

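Whole brain RNA from 6 mice, 3 per group, had been hybridized to Affymetrix Mouse Gene 1.0 ST arrays. The deposited log2 expression values were used; RMA had corrected their background, normalized the arrays to each other and summarised probes. The methods name both a GC-adjusted RMA in Partek and RMA 16 in GeneSpring, and RMA is known to compress differences near background.

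Names came from the platform annotation, and gene identifiers gave current symbols (GRCm38.p6). Of 35556 clusters 21789 name 1 gene, 1621 name several and 12146 have no name here. For list genes the brightest cluster naming the gene alone stood for it. Two-sided tests used limma 3.58.1 (lmFit, then eBayes; R 4.3.3) on all clusters together, with Benjamini-Hochberg adjustment and a threshold of 0.05, and intervals are 95% confidence intervals from this fit. The unpaired t test of the methods is called the methods' t-test. Each array is a separate mouse. The limma p-values weigh the group difference against a spread between mice that eBayes draws toward a value common to all clusters. The methods' t-test used the spread within the cluster alone. With 3 mice per group an exact two-sided permutation p cannot go below 0.1. The number of arrays limits the precision. Receptor clusters served as a background level.

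The members and lists were chosen with earlier results of these data known, the lists from general knowledge. The genes named are the members, list genes that passed or else up to 3 per list with the smallest p, and the 5 most like Ada. Other genes named, and the promoter windows printed, were chosen after their values were seen. Alternatives were the methods' t-test, eBayes with trend and robust variances, weights per array, centring on the array median, quantile normalization, a filter that drops the dimmest 40% of clusters, clusters that name 1 gene, an offset of 32 on the linear scale, the replicate number as a block, each array left out, LPS replicates 1 and 2 left out, and every cluster of Pnp. The fit was tested on simulated data.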

Additional observations from a re-analysis of the deposited data

How the results depend on the processing

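Ada kept its direction under all alternatives that tested it, and its cluster was among the 40% with the lowest mean, so that filter gave no value. Its log2 fold change no longer passed by the methods' t-test (-0.61, adjusted p = 0.156), with centring on the array median (-0.70, adjusted p = 0.0534 from limma), with an offset of 32 (-0.41, adjusted p = 0.0560 from limma), with the replicate block (-0.61, adjusted p = 0.158 from limma) and without LPS replicates 1 and 2 (-0.59, adjusted p = 0.231 from limma). It passed with trend and robust variances, array weights, quantile normalization and clusters that name 1 gene (adjusted p from 0.00461 to 0.0457 from limma). With 1 array left out it lay between -0.66 and -0.56 (adjusted p from 0.0169 to 0.183 from limma). The sign of Pnp turned with array weights (Pnp log2 fold change -0.045) and with centring (Pnp -0.071), and with 1 array left out Pnp lay between -0.057 and 0.092, below 0 without LPS replicate 3 or PBS replicate 2. The shared Pnp2 and Pnp cluster turned to -0.16 with array weights, and the shared Tmigd3 and Adora3 cluster to 0.20 without LPS replicates 1 and 2.

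The adenosine clusters called lower numbered 0 by the methods' t-test, with centring, the filter, the offset, the block or without LPS replicates 1 and 2, 2 (Ada and Nt5e) among clusters that name 1 gene, 3 (Ada, Nt5e and the Adora3 cluster) with array weights, and 0 to 2 with 1 array left out. Those called higher numbered 1 (Adk) with array weights and 0 otherwise. Over all clusters 232 were higher and 22 lower. These became 4 and 1 by the methods' t-test, 4751 and 3572 with array weights, 141 and 10 with centring, 76 and 4 with the block, and 71 and 12 without LPS replicates 1 and 2, while 13 were lower after quantile normalization and 61 among clusters that name 1 gene. With 1 array left out 74 to 2640 were higher and 0 to 1152 lower, the highest of both without LPS replicate 3. Of the other purine genes 0 were higher by the methods' t-test, after quantile normalization, with centring, with the block and without LPS replicates 1 and 2. With array weights 4 were higher and 11 lower, and with 1 array left out 0 to 1 were higher and 0 to 1 lower. The causes were not tested. Centring moved the median of all clusters to -0.09, and signs of members other than Pnp held under it.

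Whether replicate numbers pair the samples cannot be decided from 3 arrays per group. Deviations of same-numbered arrays from their group means correlated at 0.0867, -0.0538 and 0.0997. LPS replicates 1 and 3 correlated best with the control of the same number, and LPS replicate 2 with PBS replicate 1 (0.146). The signals of Ada, Bst1, Acpp and Ampd1 near background limit what their values show.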

Other observations

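The protein-coding genes beside Ada on its chromosome in the RefSeq annotation (GRCm38.p6), chosen after the values of Ada were seen, did not pass limma. Pkig, the next gene on one side, which encodes an inhibitor of protein kinase A, had 6.88, 6.97 and 6.32 in LPS-treated mice, against 6.30, 6.08 and 6.04 in vehicle-treated controls. All LPS-treated mice were above all controls, by a margin of 0.02, as in 9.73% of all clusters. LPS replicate 3 was the lowest LPS-treated mouse. The log2 fold change was 0.58 (95% interval 0.15 to 1.01, adjusted p = 0.258 from limma), which did not pass. Ccn5, the next gene on the other side, differed by -0.20 with overlapping groups (adjusted p = 0.587 from limma). The other neighbours measured, Ttpal, Serinc3, Kcnk15 and Rims4, had log2 fold changes from -0.16 to 0.09, and none of the 6 passed. Serinc3 (0.09) also had all LPS-treated mice above all controls, by a margin of 0.07, and Ttpal, Kcnk15 and Rims4 overlapped.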
